A study of Mus musculus with 384 samples.

Results

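Krt7, Krt8, Krt18, Krt19 and Vim are 5 of the 31617 genes counted in single mouse pluripotent stem cells, and together they encode the simple epithelial keratins and the mesenchymal filament protein vimentin. They were chosen by measured values: Krt18 and Vim were picked because they were high in formative stem (FS) cells with little Pou5f1, and the other keratins as their usual partners, so their high level in such FS cells is a description here and was not tested. The level of each gene in each cell is given as CPM, the reads of the gene divided by all reads counted in that cell and multiplied by 1000000. Each of the 5 genes has 1 row in the table, and all 5 rows were used.

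Intermediate filaments are built from proteins that assemble side by side, and the composition changes with cell type. Simple keratins are obligate partners: a type II keratin (KRT7 or KRT8) pairs with a type I keratin (KRT18 or KRT19), and KRT8 with KRT18 is the first pair made in the mouse embryo, known from the trophectoderm and from the epithelia of internal organs. KRT19 is common in simple and ductal epithelia and KRT7 in trophoblast and glandular epithelia. Vimentin forms filaments on its own and is typical of mesenchyme and of cells that have left an epithelium, while the epiblast is an epithelium whose core pluripotency factor is OCT4, the product of Pou5f1.

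The cells were sorted one per well and sequenced with Smart-seq2, a full-length method without molecular identifiers. FS cell lines 5ar1 and 5ar2 were grown in AloXR, which combines low activin with the tankyrase inhibitor XAV939 and the retinoic acid receptor inverse agonist BMS493. EpiSCs, the stem cells of the later, primed epiblast, came as line AFX6 in AFX (activin, Fgf2 and XAV939) and line AF32 in AF (activin and Fgf2 without XAV939). There were 96 cells of each line, of which 90, 90, 66 and 80 cells of 5ar1, 5ar2, AFX6 and AF32 had at least 3000000 counts, the limit also used in the study, and these 326 cells were analysed. The mouse strain of each line was not given in the sources used here, and since each EpiSC medium held a single line, line and medium cannot be told apart among the EpiSCs.

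The kept cells had between 3022666 and 6686007 counts and between 8955 and 12603 detected genes. Pou5f1 had a median of 498 to 630 CPM in the 4 lines, so the cells carried the pluripotency marker that their labels call for, and only 2, 3, 1 and 5 cells of 5ar1, 5ar2, AFX6 and AF32 were under 1/4 of their line's median, called Pou5f1-low below. The summed level of 11 trophoblast genes was low, with means of 24.0 to 65.2 CPM in the lines, as was that of 8 surface ectoderm genes, at 8.11 to 17.2 CPM. Elf5, a trophoblast factor, was found in 1 cell and the basal keratin Krt5 in 3, both named after their values were seen. Other genes of these lists were found widely, Ets2 in 222, Ascl2 in 149 and Grhl2 in 129 cells. Endoderm genes (15 of 19 in the table) summed to a mean of 478 to 724 CPM, most of it Sparc at 413 to 665 CPM. Fibroblast genes (10 of 12 in the table) summed to a mean of 31.3 to 73.8 CPM in 5ar1, AFX6 and AF32, and 557 CPM in 5ar2. In 5ar2 a single Pou5f1-low cell had 38775 CPM, and the highest cell that was not Pou5f1-low had 3586 CPM. The cells that were not Pou5f1-low had a median of 40.5 CPM in 5ar2 and at most 30.1 CPM in the other lines. The 5ar2 line was thus the highest for fibroblast genes by mean and by median. Neural genes summed to a mean of 231 to 898 CPM. The cell just inside the depth limit was an AFX6 cell with 3022666 counts, 595 CPM of Krt18 and 1.99 CPM of Pou5f1, and the cell just outside was a 5ar2 cell with 2910409 counts, 0.344 CPM of Krt18 and 1018 CPM of Vim.

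In the GRCm38 build, Krt7 (chr15:101411043-101430313), Krt8 (chr15:101996698-102004482, minus strand) and Krt18 (chr15:102028180-102032027) lie on chromosome 15, where the start sites of Krt8 and Krt18 are 23698 bases apart and the genes are transcribed away from each other. Krt19 (chr11:100140810-100148665, minus strand) is in the type I cluster of chromosome 11 and Vim (chr2:13573927-13582826) stands alone on chromosome 2. The promoters of the neighbouring Krt8 and Krt18 and of Vim are shown because these 3 genes carry most of the counts described below. Each window runs from 250 bases before to 50 bases after the gene start of RefSeq (GRCm38.p6) and is written in the direction of transcription, from chr15:102004293-102004592 on the minus strand for Krt8, chr15:102027966-102028265 on the plus strand for Krt18 and chr2:13574061-13574360 on the plus strand for Vim. Capitals mark the letters TATAA or, for the other strand, TTATA, with overlapping matches joined.
Krt8: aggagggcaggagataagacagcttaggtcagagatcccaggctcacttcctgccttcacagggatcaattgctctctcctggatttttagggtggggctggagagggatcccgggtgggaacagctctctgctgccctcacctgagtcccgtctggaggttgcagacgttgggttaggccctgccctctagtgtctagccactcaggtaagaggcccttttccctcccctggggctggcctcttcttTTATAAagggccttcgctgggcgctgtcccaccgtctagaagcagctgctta
Krt18: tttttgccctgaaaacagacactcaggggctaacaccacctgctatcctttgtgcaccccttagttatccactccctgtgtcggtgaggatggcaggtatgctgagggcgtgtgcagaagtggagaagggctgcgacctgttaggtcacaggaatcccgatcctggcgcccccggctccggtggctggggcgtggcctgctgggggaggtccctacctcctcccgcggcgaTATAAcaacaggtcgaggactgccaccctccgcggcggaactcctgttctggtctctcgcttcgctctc
Vim: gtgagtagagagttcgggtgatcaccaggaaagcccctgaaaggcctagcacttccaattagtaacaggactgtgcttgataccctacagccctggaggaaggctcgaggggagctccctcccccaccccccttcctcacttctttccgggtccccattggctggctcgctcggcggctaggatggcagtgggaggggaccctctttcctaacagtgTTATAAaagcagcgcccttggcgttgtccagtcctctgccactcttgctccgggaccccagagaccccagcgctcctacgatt

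TATAA, the core of the TATA box, was present in the windows of Krt8, Krt18 and Vim, and 24.9% of all 32851 promoter windows held it on one strand or the other. The window of Krt7 had no TATAA and 4 matches to GGGCGG, the core of the GC box, on both strands together, against 35.7% of all windows with at least 1. None of the 4 windows held TGANTCA, the AP-1 motif, which was in 7.81% of all windows. A match of letters is a description of the sequence and not a site, and the absence of a match says only that these letters are not in this window.

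Krt18, the type I partner of Krt8, was the keratin with the highest level per length of transcript in every line, and its level depended strongly on the line. In 5ar1 its lowest, median and highest cells were at 0, 30.3 and 2637 CPM, and in 5ar2 at 0.554, 138 and 1594 CPM. In AFX6 they were at 0.542, 578 and 2115 CPM, and in AF32 at 0, 47.2 and 460 CPM. AFX6 thus stood apart: 95.5% of its cells (exact binomial 95% interval 87.3% to 99.1%) had at least 100 CPM of Krt18, compared with 67.8% of 5ar2 cells, 26 of 80 AF32 cells and 18.9% of 5ar1 cells. The median cells of 5ar1 and AF32 were close, although one line is FS and the other EpiSC. The order of the lines by median was AFX6, 5ar2, AF32 and 5ar1, and in 57.6% of all pairs of an AF32 and a 5ar1 cell the AF32 cell was the higher, so that these neighbours overlapped almost fully.

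Krt8, the type II partner, had the same order of lines. Its lowest, median and highest values were 0, 1.00 and 1148 CPM in 5ar1 and 0, 73.9 and 2814 CPM in 5ar2. They were 0, 144 and 2058 CPM in AFX6 and 0, 35.8 and 616 CPM in AF32. Krt8 was therefore close to absent in the median 5ar1 cell and clearly present in the median 5ar2 cell, although both are FS lines in the same medium. AFX6 and 5ar2 overlapped widely, with the AFX6 cell higher in 64.3% of pairs, and with all 384 cells the mean log2 level of 5ar2 was the higher of the pair.

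Krt19, the other type I keratin, reached 10 CPM in fewer cells. Its medians were 0.220 CPM for 5ar1, 3.28 CPM for 5ar2, 105 CPM for AFX6 and 0.499 CPM for AF32, and its highest cells were at 329, 785, 2374 and 1100 CPM. The 5ar2 median lay in the nearly empty range between its low and high cells. At least 10 CPM was reached by 80.3% of AFX6 cells, 48.9% of 5ar2 cells, 21.3% of AF32 cells and 14.4% of 5ar1 cells. In AF32 most of the signal came from a handful of cells: the top 5 of 80 cells held 77.1% of all Krt19 counts.

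Krt7, the second type II keratin, was at 0 in the median cell of every line. It was detected in 6 of 90 5ar1 cells, 7 of 90 5ar2 cells, 11 of 66 AFX6 cells and 16 of 80 AF32 cells, and the highest cells were at 28.6, 28.3, 47.9 and 71.0 CPM. AF32 had the most cells at or over 10 CPM, 13 of 80, compared with 3, 3 and 4 cells of 5ar1, 5ar2 and AFX6. Thinning every cell to 3000000 counts left detection at 5.56%, 7.78%, 16.7% and 20% of the cells, in the same order.

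Vim was the only one of the 5 genes found in all 326 cells. Its lowest, median and highest values were 19.9, 358 and 6495 CPM in 5ar1 and 75.2, 401 and 2357 CPM in 5ar2. They were 1.4, 225 and 2124 CPM in AFX6 and 54.6, 1022 and 12087 CPM in AF32. The line with the most keratin, AFX6, had the least vimentin, and it was the only line with cells under 5 CPM of Vim (5 of 66). The FS lines were neighbours in this order, with the 5ar2 cell higher in 56.5% of pairs.

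**Figure D1:**
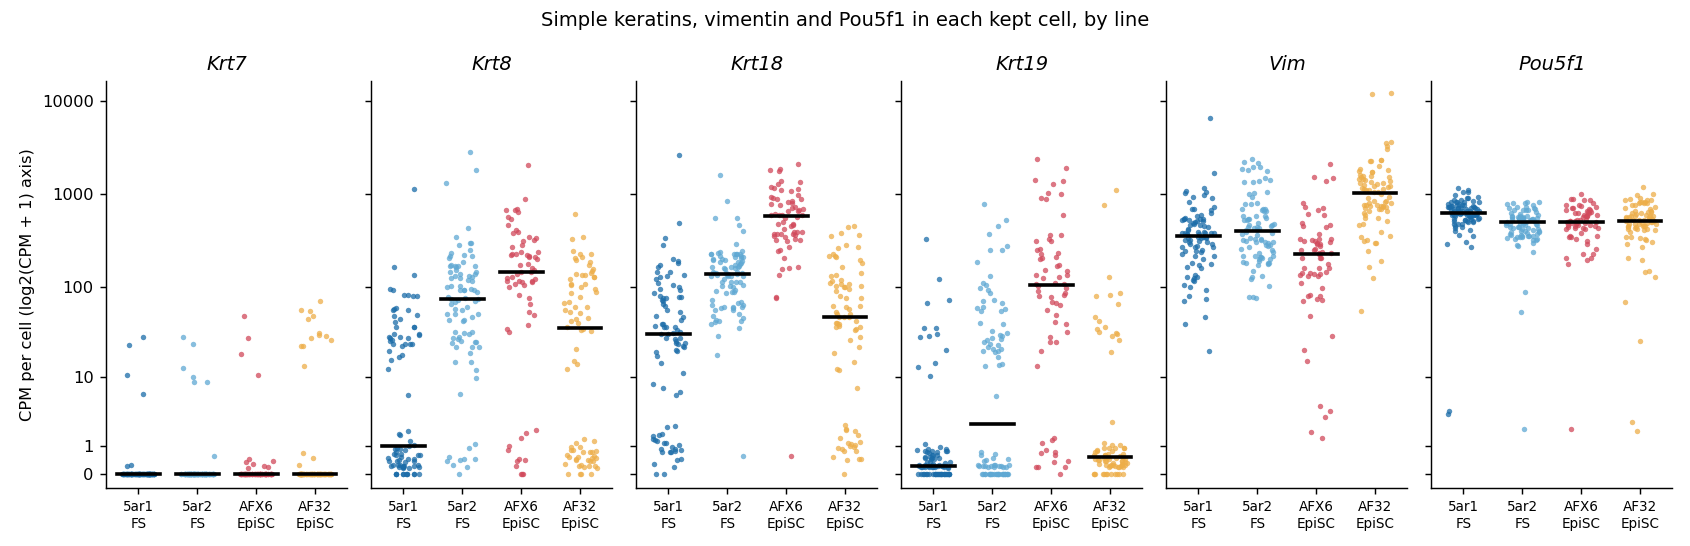
CPM of Krt7, Krt8, Krt18, Krt19, Vim and Pou5f1 in each kept cell (vertical axis on the log2(CPM + 1) scale, labelled in CPM), by line; each point is a cell and the black bar is the median of the line. Krt18 medians run from 30.3 CPM in 5ar1 to 578 CPM in AFX6, Vim is highest in AF32, and Pou5f1 medians lie between 498 and 630 CPM.

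The keratins were distributed in separate low and high ranges. Over all lines, 19 cells had no count of Krt8, 86 lay above 0 but under 5 CPM, 3 between 5 and 10 CPM and 218 at or over 10 CPM. For Krt18 these numbers were 3, 45, 5 and 273, and for Krt19 64, 134, 1 and 127. The range from 5 to 10 CPM was thus almost empty for each of them, and cells fell on either side of it. The low range had medians of 0.421 to 0.793 CPM of Krt8 in the 4 lines, and whether these few reads come from the cell itself was not tested. Vim showed no such gap outside AFX6, where 5 cells were at 1.4 to 4.30 CPM and the next were above 10 CPM.

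Counting Krt8, Krt18 and Krt19 at or over 10 CPM in each cell gave a line-specific mixture. All 3 were on in 46 of 66 AFX6 cells (69.7%, exact 95% interval 57.1% to 80.4%) and in 39 of 90 5ar2 cells (43.3%, 33% to 54.2%). In AF32 this was so in 13 of 80 cells (16.3%, 8.95% to 26.2%) and in 5ar1 in 6 of 90 (6.7%, 2.5% to 13.9%). Cells with none of the 3 were 18 of 90 in 5ar1, 0 of 90 in 5ar2 (a share of up to 4.02% at the same level), 1 of 66 in AFX6 and 9 of 80 in AF32. In 5ar2 the median Vim level was 196 CPM in the cells with 1 keratin on, 286 CPM with 2 and 694 CPM with all 3. The other lines did not rise in this order. The medians for 1, 2 and 3 keratins were 383, 338 and 683 CPM in 5ar1, 165, 159 and 232 CPM in AFX6, and 1144, 794 and 823 CPM in AF32. These intervals cover counting error only.

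Summed over the kept cells, the lines differed by several fold in the keratins. Since each is a single line, the following are ratios without a replicate check. Shares of genes are over those with at least 5 CPM in either line of the pair. Krt7 reached 5 CPM only in AF32 (6.01 CPM), so in pairs without AF32 it was not among the genes compared. AFX6 had 33.4 times the Krt19, 8.40 times the Krt18 and 7.83 times the Krt8 of 5ar1, so 3 of 5 members were at least 4-fold higher, against 3.54% of the genes compared. Over AF32, AFX6 had 10.1 times the Krt19 and 7.76 times the Krt18 (2 of 5 members, against 3.03% of genes), and over 5ar2 it had 5.09 times the Krt19 (1 of 5, against 3.58%). The keratin level of AFX6 was above that of every other line for Krt8, Krt18 and Krt19.

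The 2 FS lines differed from each other as well. 5ar2 had 6.5 times the Krt19 and 5.29 times the Krt8 of 5ar1, 2 of 5 members, where 0.456% of the genes compared were at least 4-fold higher in 5ar2. Without the highest cell of each line these ratios were 8.28 and 6.3. For Vim the ratio was 1.3. The FS lines thus differed in Krt8 and Krt19 although they shared a medium.

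AF32 led in the other 2 genes. It had 4.52 times the Vim of AFX6 (1 of 5 members, against 3.81% of genes), 6.5 times the Krt7 of 5ar1 (1 of 5, against 3.48%) and 5.76 times the Krt7 of 5ar2 (1 of 5, against 4.06%). Krt7 was low throughout, at 6.01 CPM in the summed AF32 cells. In the other 5 ordered pairs of lines none of the members was 4-fold higher; the share of genes was 0.633% for 5ar1 over 5ar2, 3.73% and 2.4% for 5ar1 over AFX6 and AF32, and 2.8% and 2.1% for 5ar2 over AFX6 and AF32.

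With lines as replicates, FS cells against EpiSCs, none of the 5 members passed the test (edgeR quasi-likelihood test on line sums, Benjamini-Hochberg adjusted over 22606 genes). All log2 fold changes, FS minus EpiSC, were negative: -2.30 (SE 1.5, adjusted p = 0.558) for Krt19, -1.95 (SE 0.841, adjusted p = 0.376) for Krt7, -1.60 (SE 1.07, adjusted p = 0.582) for Krt18, -0.71 (SE 1.00, adjusted p = 0.830) for Krt8 and -0.71 (SE 0.731, adjusted p = 0.751) for Vim. No gene passed in this design (0 of 22606, 0%), 3636 genes had an unadjusted p under 0.05, DESeq2 called 2500 of 21729 genes and none of the members, and limma on line means called 0 of 22606, with 4677 genes at an unadjusted p under 0.05. Krt7 was the single member with both FS lines under both EpiSC lines, which held for 21.5% of the genes tested. The direction for Krt18, Krt19 and Krt8 turned to higher in FS cells without AFX6, that for Vim turned without AF32, and that for Krt8 was 0.01 on the log2 scale without 5ar1.

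Krt8 and Krt18 encode keratins that can pair with each other, and their mRNAs were compared cell by cell. Krt7 and Krt19, whose products can also pair with them, were left out of this comparison. In cells with at least 10 CPM of both, the median ratio of Krt8 to Krt18 per length of transcript was 0.320 for line 5ar1, 0.489 for 5ar2, 0.237 for AFX6 and 0.551 for AF32. These were 29 of 90 5ar1 cells, 77 of 90 5ar2 cells, 54 of 66 AFX6 cells and 35 of 80 AF32 cells. By the median of these cells, Krt18 was thus in excess over Krt8 in every line. Krt18 at or over 10 CPM with Krt8 under 5 CPM was seen in 31 of 90 5ar1 cells, 10 of 90 5ar2 cells, 11 of 66 AFX6 cells and 23 of 80 AF32 cells. The reverse, Krt8 without Krt18, was seen in 8, 1, 0 and 12 cells. The 5ar1 and AF32 lines therefore had the most cells with one of these genes and not the other. They were also the lines with the lowest medians of both genes. Where Krt8 was under 5 CPM, the median of Krt18 was 23.2 CPM in 5ar1 and 36.9 CPM in AF32, against 137 CPM in 5ar2 and 467 CPM in AFX6. Whether transcripts missed in single cells account for such cells was not tested.

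Across the cells of a line, Krt8 and Krt18 had Spearman's rho of 0.32 over 90 5ar1 cells, 0.53 over 90 5ar2 cells, 0.28 over 66 AFX6 cells and 0.22 over 80 AF32 cells. Without the Pou5f1-low cells the values were 0.28, 0.52, 0.28 and 0.21. These are descriptions across cells that share a culture and a depth range. The partners covaried in the same direction in all 4 lines, which no other pair among Krt8, Krt18, Krt19 and Vim did with values over 0.2 throughout.

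**Figure D2:**
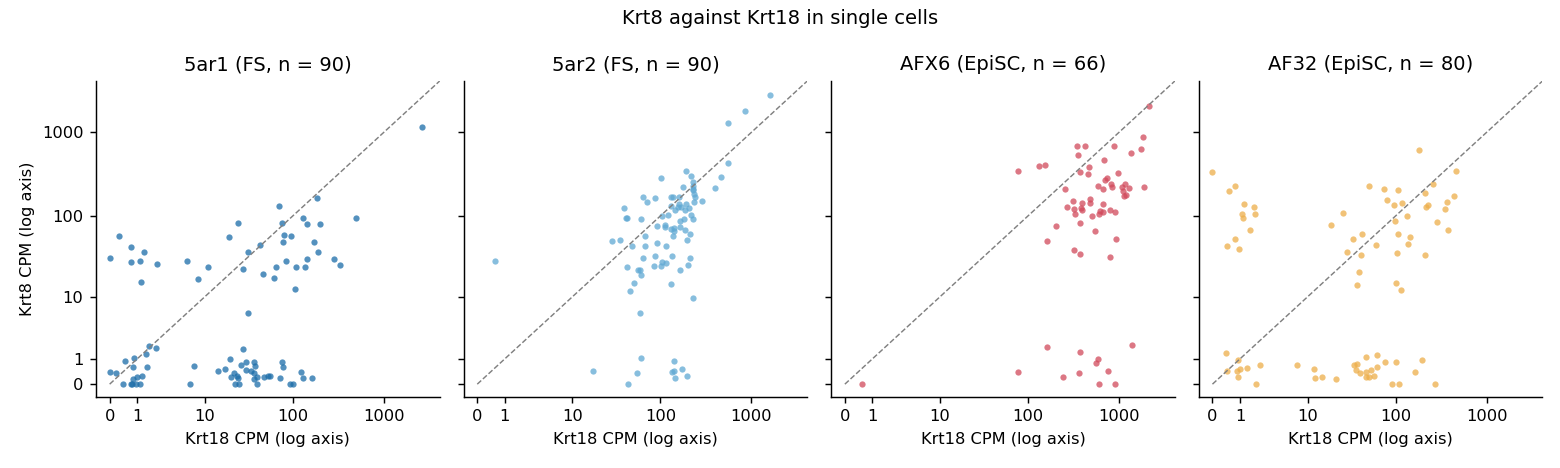
Krt8 against Krt18 in the kept cells of each line, both axes in CPM on a log2(CPM + 1) scale; each point is a cell and the dashed line marks equal CPM, not equal levels per length. Cells on the lower edge have Krt18 without Krt8, 31 of them in 5ar1 and 23 in AF32 by the limits of 10 and 5 CPM.

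The other pairs depended on the line. Krt8 and Krt19 had a rho of 0.55 in AFX6 and 0.31 in 5ar2, but 0.00 in 5ar1 and 0.09 in AF32. Krt19 and Vim had a rho of 0.63 in 5ar2, 0.28 in AFX6, 0.17 in 5ar1 and 0.04 in AF32. Krt18 and Vim had a rho of 0.36 in 5ar2 and between -0.16 and -0.05 in the other lines. In 5ar2 alone, then, all 4 abundant genes covaried positively, with rho from 0.27 to 0.63, and these values were 0.25 to 0.61 without its 3 Pou5f1-low cells.

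High cells were defined as cells with at least 4 times the median of their own line and at least 50 CPM. Krt18 was high in 15 of 90 5ar1 cells, 3 of 90 5ar2 cells, 0 of 66 AFX6 cells and 13 of 80 AF32 cells, and Krt8 in 13, 7, 6 and 13 cells, the last being 27 of 96 when the AF32 cells under the depth limit were included. Krt19 was high in 4, 22, 10 and 7 cells and Vim in 2, 8, 4 and 2. The number depends on the median of the line, which for Krt18 was highest in AFX6. There 4 times the median of 578 CPM was above the highest cell of 2115 CPM, so no cell could be Krt18-high. For Krt8 in 5ar1 and Krt19 in 5ar1, 5ar2 and AF32, the medians were so low that the limit was 50 CPM. High cells of different lines were therefore not picked at the same level. Of the 15 Krt18-high cells of 5ar1, 6 were also Krt8-high (40.0% of the Krt18-high and 46.2% of the 13 Krt8-high cells), and all 3 Krt18-high cells of 5ar2 were among its 7 Krt8-high and 22 Krt19-high cells.

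Genes of related function were then read in the member-high cells, without a test because the cells were picked on these counts. The annexins, galectins and S100 proteins are membrane and calcium-binding proteins that are abundant in epithelial and spread cells. Among those that averaged 5 CPM or more, 9 of 9 had a higher mean in the Krt8-high than in the other cells of 5ar1 (median log2 ratio 1.6, all genes -0.04), 9 of 9 in 5ar2 (2.03, all genes -0.09) and 8 of 8 in AFX6 (1.6, all genes -0.09). In Krt8-high cells of AF32 it was 5 of 8 (0.45, all genes -0.02). Anxa2, an annexin that links membranes to actin, had a mean of 342 CPM in the Krt8-high and 82.3 CPM in the other cells of 5ar1, which became 167 and 83.4 CPM without the Pou5f1-low cells. In AFX6 the means of Anxa2 were 1115 and 381 CPM.

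Krt19-high cells showed these genes in every line: 9 of 9 in 5ar1 (2.8, all genes -0.09), 9 of 9 in 5ar2 (1.6, all genes -0.04), 8 of 8 in AFX6 (1.6, all genes -0.05) and 6 of 8 in AF32 (1.5, all genes -0.08). Vim-high cells had 9 of 9 higher in 5ar2 (2.6) and 8 of 8 in AFX6 (1.4). Krt18-high cells were less uniform, with 8 of 9 in 5ar1 (1.4), 9 of 9 in 5ar2 (2.97) and 4 of 8 in AF32 (-0.16). Without the 2 Pou5f1-low cells of 5ar1, of which 1 was both Krt8-high and Krt18-high, its Krt18-high cells had 4 of 8 higher (0.07) its Krt8-high cells 7 of 8 (0.56) and its 3 remaining Krt19-high cells 8 of 8 (0.78). In 5ar2 without its Pou5f1-low cells, 8 of 8 were higher in Krt8-high (1.2), Krt19-high (1.2) and Vim-high cells (1.5), and in the 2 Krt18-high cells left (1.3).

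Actin cytoskeleton genes and targets of the transcription factors SRF and YAP had a higher mean in most of the same groups, except in AF32. In 5ar1 they were higher in 21 of 22 for Krt8-high cells (median log2 ratio 0.82), 19 of 22 for Krt18-high cells (0.48) and 20 of 22 for Krt19-high cells (0.87), and without the Pou5f1-low cells in 22 of 22 (0.64), 18 of 22 (0.28) and 20 of 22 (0.92). In 5ar2 they were higher in 23 of 24 for Krt8-high cells (median log2 ratio 1.5), 24 of 24 for Krt19-high cells (1.1) and 23 of 24 for Vim-high cells (1.4). All 3 of these 5ar2 groups held the Pou5f1-low cell with 85676 CPM of these genes, against a median of 9851 CPM, and without the Pou5f1-low cells the counts were 21 of 22 (1.08), 22 of 22 (0.91) and 21 of 22 (1.09). In AFX6 the numbers were 22 of 22 for Krt8-high cells (1.2), 21 of 22 for Krt19-high cells (1.1) and 19 of 22 for Vim-high cells (0.74). AF32 differed by keratin, with 20 of 21 for Krt19-high cells (0.86), 12 of 21 for Krt18-high cells (0.06) and 6 of 21 for Krt8-high cells (-0.32). Of the pluripotency genes, 1 of 15 had a higher mean in the Krt8-high cells of 5ar2 (median -0.62), and 3 of 15 without the Pou5f1-low cells (-0.42), while in Krt8-high cells of AF32 it was 7 of 13 (0.01). The Krt8-high and other cells of 5ar2 had median counts of 4960200 and 4794120.

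**Figure D3:**
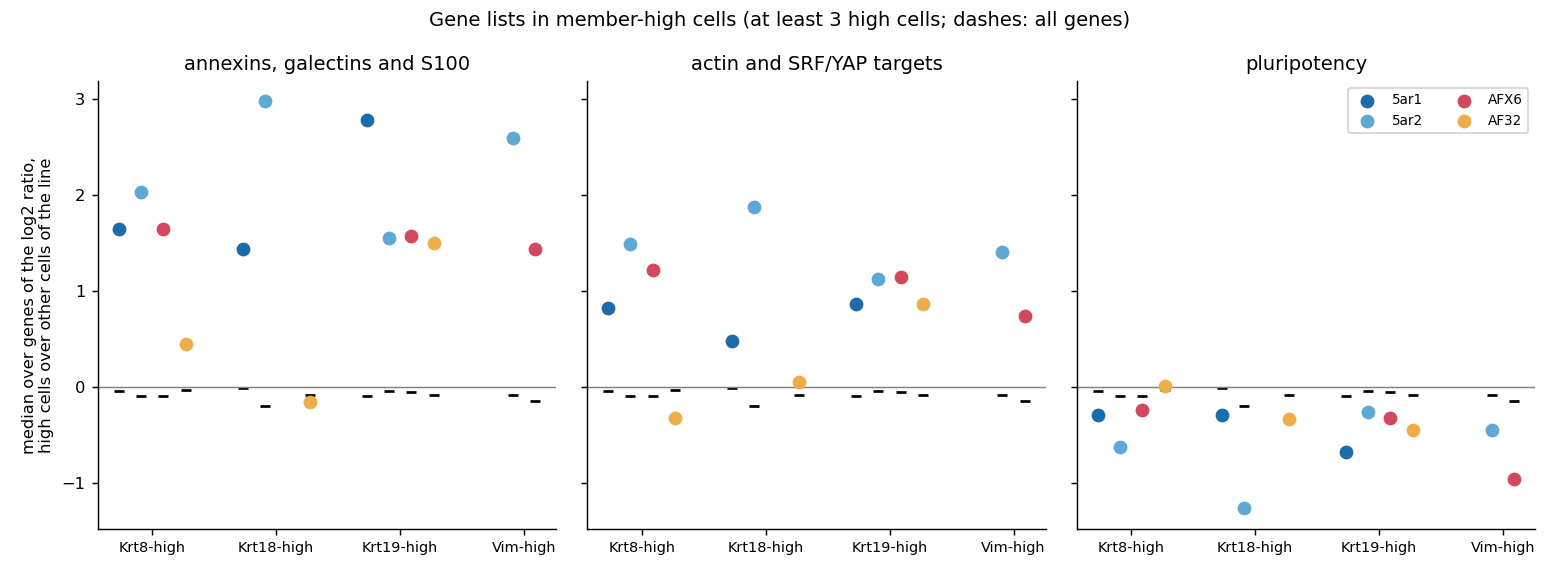
Median over the genes of a list of the log2 ratio of mean CPM, member-high cells over the other cells of the same line (vertical axis, log2(CPM + 1)), for annexins with galectins and S100 proteins, actin and SRF/YAP genes, and pluripotency genes; coloured points are lines with at least 3 high cells and black dashes are the median over all genes. Annexin points lie above the dashes except for Krt18-high cells of AF32 at -0.16.

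Genes of desmosomes and cytolinkers, to which keratin filaments attach, were higher in 9 of 9, 8 of 8, 10 of 12 and 6 of 8 for the Krt19-high cells of 5ar1, 5ar2, AFX6 and AF32. For Krt8-high cells these counts were 8 of 9, 5 of 8, 6 of 12 and 5 of 8, with medians from 0.08 to 0.55. The medians over all genes were those given for the same groups with the annexins. Both 5ar1 groups held a Pou5f1-low cell with 3423 CPM of these genes, where the highest cell that was not Pou5f1-low had 984 CPM. Both 5ar2 groups held a Pou5f1-low cell with 1374 CPM, where that value was 1172 CPM. Counts without the Pou5f1-low cells are not given here for this list. Their summed mean was 821 CPM in AFX6, the line with the most keratin, and 374 to 429 CPM in the others.

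The genes whose level followed each member most closely across cells were named by the mean of the 4 within-line rho values, over the 5758 or 5759 genes that averaged 20 CPM or more in every line. For Krt8 they were Jup (mean rho 0.37), which encodes the desmosome and adherens junction protein plakoglobin, then Krt18 (0.34), Myadm (0.32), Dstn (0.28) and Sparc (0.28). For Krt18 they were Krt8 (0.34), Cldn6 (0.30), Jup (0.29), Cdh1 (0.28) and Tagln2 (0.26), of which Cldn6 encodes a tight junction claudin and Cdh1 E-cadherin. The central 95% of all genes lay between -0.15 and 0.15 for Krt8 and between -0.12 and 0.13 for Krt18. At the other end were Minos1 (-0.24), Cenpw (-0.23) and Psmc6 (-0.23) for Krt8, and Msantd3 (-0.22), Hmgb1 (-0.22) and Ctsf (-0.21) for Krt18. The mean can hide differences between lines. The rho with Krt8 was 0.53 for Jup and 0.50 for Sparc in AFX6, but 0.12 and 0.004 in AF32.

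Krt19 was closest to Tpm1 (0.34), a tropomyosin of actin filaments, Myadm (0.34), Tagln2 (0.34), Thbs1 (0.33) and Cald1 (0.32), and farthest from Set (-0.28), Orc2 (-0.25) and Rfc4 (-0.25). Here too lines differed, with Cald1 at 0.54 in 5ar2 and -0.003 in AF32, and Tagln2 at 0.54 in 5ar2 and 0.10 in 5ar1. Vim had the strongest relations: Tmsb4x (0.53), which encodes the actin-binding thymosin beta 4, Cald1 (0.48), the actin-binding caldesmon, Sparc (0.47), Clic1 (0.42) and Tax1bp3 (0.41). The gene with the lowest value against Vim was Dnmt3b (-0.39), the de novo DNA methyltransferase of the epiblast, with -0.52, -0.48, -0.18 and -0.38 in 5ar1, 5ar2, AFX6 and AF32, followed by Ldha (-0.38) and Car14 (-0.37). For Krt7 the highest value was 0.22 for Ogt, then Top3b (0.19), Psap (0.19), Ttc23 (0.19) and Lztr1 (0.19), and the lowest Slc38a1 (-0.23), Gins2 (-0.21) and Utp11 (-0.20). With so few detected cells, such weak values for Krt7 are not a finding.

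Across all kept cells of a line, Vim had a rho with Pou5f1 of -0.22 for 5ar1, -0.18 for 5ar2, -0.03 for AFX6 and -0.42 for AF32, while Krt18 had -0.17, 0.07, 0.02 and -0.04. Krt8 had -0.04, -0.08, 0.18 and -0.21, and Krt19 0.03, 0.01, 0.23 and -0.02. Vim alone of these had a negative sign in all 4 lines, close to 0 in AFX6, and without the Pou5f1-low cells it had -0.17, -0.14, -0.07 and -0.37. In AF32 the median Vim level was 1530 CPM in the 1/4 of cells with the least Pou5f1 and 744 CPM in the 1/4 with the most. Krt18 did not follow Pou5f1 in the same way: of its high cells, 1 of 15 in 5ar1 and 1 of 3 in 5ar2 were Pou5f1-low, and Krt18-high cells of 5ar1 had a median of 616 CPM of Pou5f1.

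**Figure D4:**
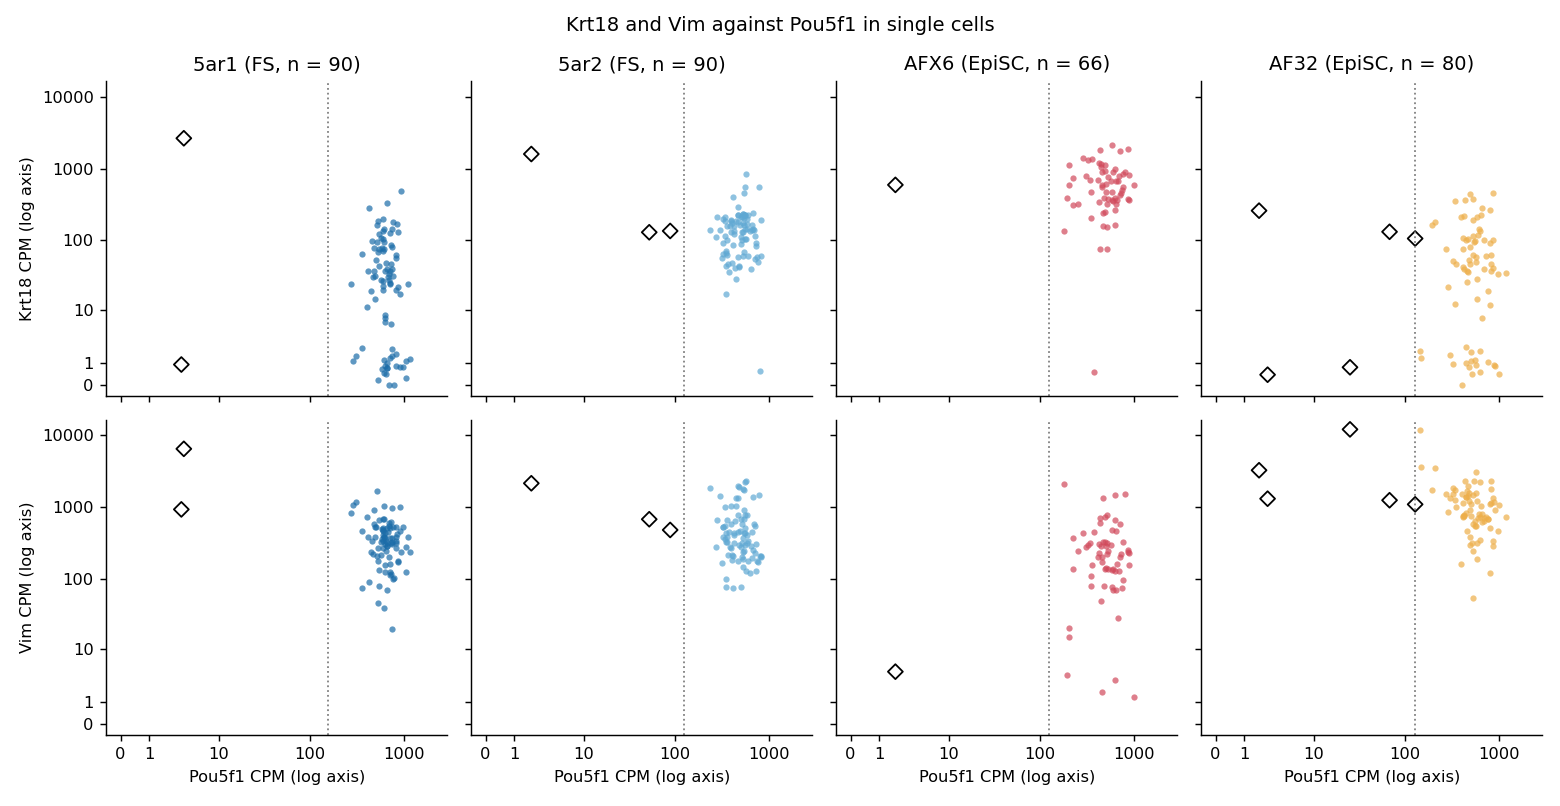
Krt18 (top) and Vim (bottom) against Pou5f1 in the kept cells of each line, all axes in CPM on a log2(CPM + 1) scale; points are cells, open diamonds are cells with Pou5f1 under 1/4 of the median of the line, and the dotted line is that limit. The diamonds of the FS lines include the highest Krt18 cells (2637 CPM in 5ar1 and 1594 CPM in 5ar2), while an AFX6 diamond sits at 4.30 CPM of Vim.

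Pou5f1-low FS cells were few and not alike. The 5 cells are described one by one because the choice of Krt18 and Vim rests on them, and the genes named for them were picked after their values were seen. In 5ar1, one cell with 3.68 CPM of Pou5f1 had the highest level of its line in Krt8 (1148 CPM), Krt18 (2637 CPM), Krt19 (329 CPM) and Vim (6495 CPM). The same cell led its line in the desmosome genes, with 3423 CPM in sum against a median of 368 CPM in the other cells. It also led in annexins with their relatives (7425 against 516 CPM), trophoblast genes (501 against 50.7 CPM) and stress and p53 target genes (5202 against 989 CPM). Among these, Ets2 of the trophoblast list had 318 CPM and Cdkn1a 1238 CPM. Its endoderm genes summed to 1192 against 412 CPM, and its neural genes to 322 against 778 CPM. Its number of detected genes was low for the line, 10434.

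The other 5ar1 cell, with 3.41 CPM of Pou5f1, was the opposite for the keratins, with 0 CPM of Krt8, 0.929 CPM of Krt18 and 940 CPM of Vim. It carried neuronal genes, led by Tubb3, a neuronal tubulin, at 10109 CPM, and had 804 CPM of Ina and 534 CPM of Nefm, neuronal intermediate filament proteins. It had 9187 detected genes, the lowest number in its line. So of the 2 Pou5f1-low cells in 5ar1, 1 was high in keratins and both were above the median of Vim. Their pluripotency genes other than Pou5f1 summed to 181 CPM in the keratin-high cell and 24.1 CPM in the other, against a median of 4363 CPM.

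In 5ar2, the cell with 2.05 CPM of Pou5f1 had 2814 CPM of Krt8 and 1594 CPM of Krt18, the highest in its line, with 533 CPM of Krt19 and 2163 CPM of Vim. Smooth muscle actin (Acta2) reached 35858 CPM and collagen gene Col1a1 1867 CPM in that cell. It also led its line in endoderm genes, with 3626 CPM against a median of 570 CPM in the cells that were not Pou5f1-low. The same held for neural genes (1973 against 367 CPM), desmosome genes (1374 against 370 CPM) and annexins with their relatives (7626 against 408 CPM). Most of the endoderm sum was Sparc, at 3196 CPM against a median of 516 CPM. Most of the neural sum was Stmn2, at 1775 against 248 CPM, with 3 of 12 neural genes detected. Its trophoblast genes were at 0.187 against 37.2 CPM. The remaining pair had 53.2 and 89.2 CPM of Pou5f1, 130 and 136 CPM of Krt18, and 686 and 487 CPM of Vim, where the other 5ar2 cells had medians of 138 and 386 CPM. Their Krt18 was thus at the level of the line, and their Vim a little above it. Their pluripotency genes other than Pou5f1 summed to 2526 and 2264 CPM, against a median of 3391 CPM in the cells that were not Pou5f1-low. In the 5ar2 cell with 2.05 CPM of Pou5f1 this sum was 146 CPM.

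High Krt8 and Krt18 also occurred with Pou5f1 kept, and in the FS lines these levels were under those of the highest Pou5f1-low cell of the same line. In 5ar1 the next highest values after that cell were 166 CPM of Krt8 and 494 CPM of Krt18. The 5ar2 cell with the most Vim (2357 CPM) had 1814 CPM of Krt8, 854 CPM of Krt18 and 569 CPM of Pou5f1, and a further 5ar2 cell had 1303 CPM of Krt8, 548 CPM of Krt18 and 794 CPM of Pou5f1. In AFX6, the cell with the highest Krt8 and Krt18 (2058 and 2115 CPM) had 1395 CPM of Krt19 and 581 CPM of Pou5f1. These cells show high keratin beside a Pou5f1 level above the median of their line.

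In the EpiSC lines the Pou5f1-low cells had other profiles. The single AFX6 cell, with 1.99 CPM of Pou5f1, had 595 CPM of Krt18, 0.993 CPM of Krt8 and 4.30 CPM of Vim, so Krt18 was at the level of its line and Vim among the lowest. Its pluripotency genes other than Pou5f1 summed to 2148 CPM, against a median of 2853 CPM. All 5 Pou5f1-low AF32 cells were above the median of 913 CPM of Vim in the other AF32 cells, with values of 1104, 1259, 1322, 3278 and 12087 CPM. The cell with 12087 CPM of Vim had 229 CPM of Krt8 and 0.766 CPM of Krt18, and the cell with 3278 CPM had 261 CPM of Krt18, 127 CPM of Krt19 and 2369 CPM of T, the primitive streak factor Brachyury. The cells at 1104 and 1259 CPM had 287 and 842 CPM of Fgf8, also in the streak list, but 0 CPM of T. Of the 12 mesoderm and streak genes, 2 and 1 were detected in them. Their pluripotency genes other than Pou5f1 summed to 2035 and 3785 CPM, against a median of 3462 CPM in the other AF32 cells. In the cells at 1322, 3278 and 12087 CPM of Vim this sum was 271, 567 and 862 CPM. The cell at 1322 CPM had 0.394 CPM of Krt18 and no Krt19. Vim was over the line median in each, but the cells at 1104, 1259 and 1322 CPM ranked only 38, 30 and 28 from the top among 80 cells. The cells at 1104 and 1259 CPM had 207 and 99.5 CPM of Krt8, and 107 and 132 CPM of Krt18. Krt8 was over the median of the other cells in 4 of the 5, Krt18 in 3 and Krt19 in 1. By the limits for high cells, 3 of the 5 were Krt8-high, and 1 was high for each of Krt18, Krt19 and Vim.

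The chromosomes of the members were not balanced in all cells. The mean relative expression of the genes of a chromosome, divided by the median over the autosomes of the cell, was above 1.2 for chromosome 2 in 29 of 80 AF32 cells, and the median of Vim was 1322 CPM in these cells and 743 CPM in the others (rho 0.40 over 80 cells). For chromosome 15 it was above 1.2 in 11 of 90 5ar2 cells, with 130 CPM of Krt8 against 72.2 CPM and 163 CPM of Krt18 against 134 CPM, and in 8 of 66 AFX6 cells, with 264 against 133 CPM of Krt8 and 827 against 525 CPM of Krt18. For chromosome 11 it was above 1.2 in 66 of 80 AF32 cells, with 0.499 CPM of Krt19 against 0.534 CPM. The part of these chromosome ratios in the levels of the members was not tested.

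The other keratins were low in these cells. Of 20 further protein-coding keratin genes in the table, 1, Krt10, had a mean of at least 5 CPM in any line (between 8.19 CPM in 5ar1 and 17.5 CPM in AF32). The processed pseudogene Krt8-ps, which shares sequence with Krt8, had means of 0.229 to 1.7 CPM. The lamin gene Lmnb1, the neurofilament gene Nefl and nestin (Nes) were the most abundant filament genes beyond the members, with Lmnb1 at 125 to 192 CPM and Nes at 100.5 to 123 CPM. Nefl was highest in AFX6 at 289 CPM. Overlapping transcripts of other genes at Krt7 and Krt8 were not analysed here, and whether counting used strand is not given in the sources used here.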

How the data were processed

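Smart-seq2 libraries of 384 single cells were analysed. The authors aligned reads with STAR 2.7.3a to GRCm38.p6 and counted uniquely mapped reads per gene with featureCounts 2.0.0; the deposited table holds these raw counts for 31617 genes. The deposited normalized table holds the authors' depth-corrected sctransform score for 23574 genes, and was used only as an alternative. The table lists Ensembl identifiers, and symbols and coordinates came from GENCODE M21 (31565 of 31617 matched). The members and gene lists were chosen with earlier results of these data known.

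CPM was computed per cell. Cells under 3000000 counts were left out (58 of 384), and no cells had identical counts (0 groups). For FS cells against EpiSCs the counts were summed per line, giving 2 lines against 2, filtered with filterByExpr, scaled with TMM and tested with the quasi-likelihood test of edgeR 4.0.16 (R 4.3.3), SE being the fold change over the root of F; the p-values measure the spread between lines only. The test was checked on simulated counts: with a small spread between lines it recovered most changed genes, and with the spread estimated from these lines it recovered none, so an absence of calls does not show that levels were alike. Alternatives used DESeq2 1.42.0 and limma 3.58.1. Python 3.11.15, pandas 2.3.3, numpy 2.4.6, scipy 1.17.1 and matplotlib 3.10.9 did the rest. Correlations are within lines. Ratios of cells use log2(mean CPM + 1). Chromosome ratios used 6901 protein-coding genes on 19 autosomes with single ratios limited to 3. Named genes are the 5 members and Pou5f1, the 5 highest and 3 lowest by mean rho per member, and up to 4 of each list by mean CPM, apart from those said to be picked after their values were seen. Sequences are RefSeq promoters of GRCm38.p6 (4 of 5 members matched, Krt19 without an entry). Of the listed genes, those without a row in the table were not analysed here.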

Additional observations from a re-analysis of the deposited data

How the results depend on the processing

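Leaving out 1 line at a time gave FS minus EpiSC log2 fold changes from -2.38 to 0.42 for Krt8, from -2.43 to 0.57 for Krt18, from -4.23 to 0.22 for Krt19, from -1.41 to 0.72 for Vim and from -2.60 to -0.78 for Krt7, with 0 genes called each time. DESeq2 called 2500 genes, and the other alternatives called 0, with the cause of the difference not tested. Apart from the lines left out, no member changed direction or passed the threshold under any alternative of this test, which at the spread between these lines could hardly make a call with edgeR. For each member only the difference in mean log2 level between its highest and second highest line was followed, and not the order of the other lines. This difference kept its direction under the alternatives run except for Krt8, where AFX6 minus 5ar2 was 0.59 in kept cells and -0.53 in all 384 cells. The mean log2 difference of Krt18 between Pou5f1-low and other cells, averaged over lines, was 0.77, and -0.67 in all 384 cells. Mean rho with Pou5f1 moved by less than the spread between lines under each alternative. Of the values by line, 155 stayed within their spread or interval and 19, all of them shares of high cells and most under high as 2 or 8 times the median, did not; without cells with few detected genes no AF32 cell was Vim-high, and with all 384 cells the Krt8-high share of AF32 was 28.1% in place of 16.3%. The lists without Pou5f1-low cells were an alternative chosen after seeing the data. No paired analysis was possible because the cell numbers only name cells and the test uses line sums.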
